A study of Homo sapiens with 3 samples.

Results

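The genes of cholesterol and fatty acid synthesis were read on 3 Agilent arrays of 1 colour that held RNA from the human lung adenocarcinoma line A549. They were taken as 38 genes given by name, and a probe was assigned to a gene through its RefSeq accession. All 38 genes were on the array, with 48 probes, among 47753 names of which 18216 were protein-coding genes. The genes fall into 5 that sense sterols and control the pathway, 4 that transport sterols, 18 enzymes of the sterol branch and 11 enzymes of the fatty acid branch. The sterol branch was further divided into 7 mevalonate steps and 11 steps from squalene to cholesterol.

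The 3 groups had 1 array each. Mock cells received transfection reagent only, and the other cells received a precursor of *miR-139-5p* or of *miR-139-3p* at 10 nM, per the study's methods, with Lipofectamine RNAiMAX. The time between transfection and the extraction of the RNA for the arrays was not given in the sources used here. As mock cells received no small RNA, the uptake of any small RNA and the sequence of the miRNA cannot be told apart in a comparison with mock. Slide 1 carried the mock and *miR-139-5p* arrays and slide 2 carried the array of *miR-139-3p*, so slide and transfection cannot be told apart for *miR-139-3p*. With 1 array per condition no test was made, no difference has a replicate check, and both comparisons with mock share the mock array.

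Cholesterol is built from acetyl-CoA through mevalonate, isoprene units, squalene and lanosterol, and fatty acids are built from acetyl-CoA through malonyl-CoA. The transcription factors SREBP1 and SREBP2, the products of *SREBF1* and *SREBF2*, control both branches: SREBP2 acts mainly on sterol genes and SREBP1 on fatty acid genes. In the endoplasmic reticulum, SCAP binds the SREBP precursors, and INSIG proteins hold this complex back when sterols are plentiful. When sterols are low, SCAP carries the precursors to the Golgi, where proteases release the active factor. The factor binds sterol regulatory elements in promoters, often next to the factor NF-Y.

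The mature miRNAs are shown because they are what the groups differ by. Both lie in the gene *MIR139* on the minus strand of chromosome 11 (build GRCh38.p14, RefSeq), at chr11:72615102-72615124 for *miR-139-5p* and chr11:72615066-72615088 for *miR-139-3p*. Capitals mark the seed, bases 2 to 8 from the 5′ end.
miR-139-5p: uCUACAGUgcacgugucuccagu
miR-139-3p: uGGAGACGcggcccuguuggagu
The seeds differ, so the 2 miRNAs belong to different seed groups.

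Of the 48 probes, 47 were well above background on all 3 arrays, and the other was the dimmer probe of *NPC1L1*. Over all spots other than controls, 48.1% to 53.1% were well above background and 0 were saturated. Levels are given as the signal divided by the 75th percentile of the array, here called the relative signal, and differences as log2 fold changes of it. The probes of the 38 genes had 1 spot each, and 29 of these genes had 1 probe. The SD between spots of 1 probe, taken over 300 other probes with repeated spots, had a median of 0.05 to 0.06 on the log2 scale. The SD of the log2 fold change between probes of 1 gene was larger, with a median of 0.28 for *miR-139-3p* against mock (3889 genes) and 0.15 for *miR-139-5p* against mock (3938 genes). Neither SD holds any spread between cultures. Spots whose local background was marked as an outlier were left out, so that *ACAT2* had no value in any comparison and *FDFT1* and *ELOVL1* had none with *miR-139-3p*. The epithelial markers *EPCAM*, *KRT8*, *KRT18*, *KRT19*, *CDH1* and *KRT7* were well above background on every array, and their relative signals summed to 1579 in mock cells, 1165 with *miR-139-5p* and 977 in cells with *miR-139-3p*. The sum follows the bright *KRT18*, *KRT7* and *KRT8*, whereas *EPCAM* (2.33 in mock cells and 4.56 with *miR-139-3p*), *CDH1* (3.75 and 4.82) and *KRT19* (88.9 and 100.9) were higher with *miR-139-3p*. Of 10 markers of other cell types, 4 genes were well above background in mock cells, 3 with *miR-139-5p* and 5 in cells with *miR-139-3p*, with summed relative signals of 3.86, 4.85 and 1.63. *CD14*, a monocyte marker, was well above background on every array, with relative signals of 3.12 in mock cells, 3.42 with *miR-139-5p* and 0.791 in cells with *miR-139-3p*, as was *COL1A1*, a fibroblast collagen, at 0.428, 1.14 and 0.280 in the same order, and some probes of *PTPRC*. *PECAM1*, *COL3A1*, *DCN* and *LUM* were not well above background on any array. The part of these markers in the results was not tested.

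The sterol branch was higher with *miR-139-3p* than in mock cells, and the fatty acid branch was not. Of 16 sterol enzymes with a value, 15 had a log2 fold change above 0 and 13 were above 0.5, the threshold used here in either direction. Their median was 1.20. Of 10 fatty acid enzymes with a value, 1 was above 0.5 and 1 below -0.5, and their median was -0.05. Among all 35 members with a value, 18 were above 0.5, where 23.0% of 13551 protein-coding genes were, and 4 were below -0.5, where 30.5% of these genes were. The median was 0.50 over the members and -0.13 over the protein-coding genes. Of these protein-coding genes, 879 were measured on 1 of the 2 arrays and entered with a bound, whereas no member did.

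With *miR-139-5p* the same branch was higher by less. Of 17 sterol enzymes with a value, 15 had a log2 fold change above 0 and 6 were above 0.5, with a median of 0.36. Of 11 fatty acid enzymes, 1 was above 0.5 and 1 below -0.5, with a median of -0.02. Among 37 members with a value, 9 were above 0.5, where 10.6% of 13195 protein-coding genes were, and 4 were below -0.5, where 12.2% were. The median was 0.32 over the members and -0.01 over the protein-coding genes. With the genes of marked background restored, 20 of 38 members were above 0.5 with *miR-139-3p* and 5 were below -0.5, where 23.2% and 30.3% of 13882 protein-coding genes were. With *miR-139-5p*, 9 of 38 were above 0.5 and 4 below -0.5, where 10.6% and 12.2% of 13340 protein-coding genes were. Scaled to 7 spike-in probes of E1A RNA, 14 members were above 0.5 with each miRNA, so that the counts of 18 and 9 depended on the scaling.

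**Figure D1:**
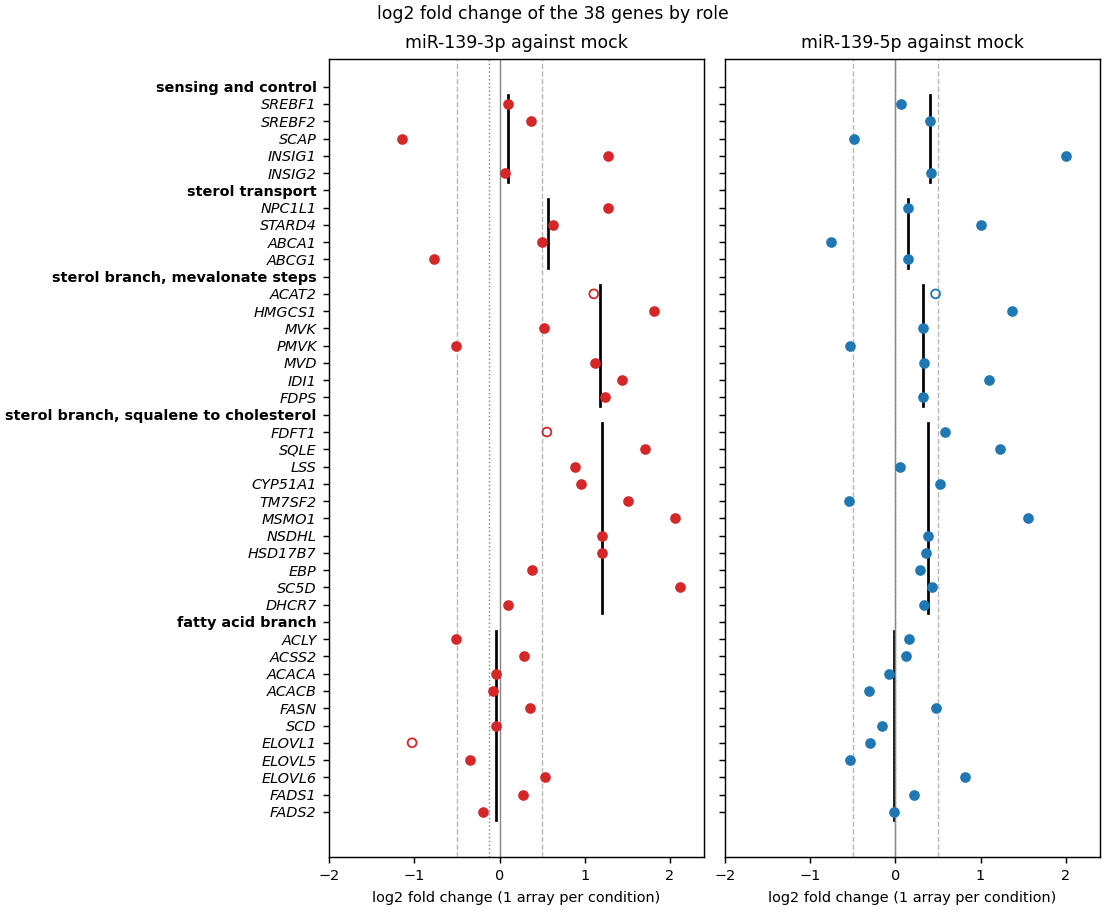
log2 fold change of each of the 38 genes, by role, with *miR-139-3p* on the left and with *miR-139-5p* on the right, each relative to mock, 1 array per condition. Filled points are values as reported, open points are probes whose local background was marked, black lines are the median of each role, dashed lines lie at -0.5 and 0.5 and the dotted line is the median of protein-coding genes. The sterol steps lie mostly to the right of 0 on the left side, with medians of 1.18 and 1.20, and the fatty acid branch lies around 0 on both sides.

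Between the 2 miRNAs, without the mock array, the sterol branch was also higher with *miR-139-3p*. Of 16 sterol enzymes, 15 had a higher signal with *miR-139-3p* than with *miR-139-5p*, 8 of them by over 0.5, and the median was 0.49. The count above 0.5 was 12 of 16 with quantile normalization and with the percentile taken over detected probes, 13 of 17 in the deposited log2 values and 6 of 16 with the spike-in scaling. The count above 0 was 12 of 16 with the spike-in scaling, where the median was 0.18, and 13 of 16 without scaling. Of 10 fatty acid enzymes, 0 were above 0.5 and 1 was below -0.5, with a median of 0.04. Over 35 members, 10 were above 0.5, where 23.0% of 13449 protein-coding genes were, and 4 were below -0.5, where 30.6% were. This comparison crosses the slides.

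The genes of sensing and control did not move one way. *INSIG1*, which holds the SCAP and SREBP complex in the endoplasmic reticulum and is itself a known SREBP target, had a relative signal of 3.24 in mock cells, 13.03 with *miR-139-5p* and 7.85 in cells with *miR-139-3p*. It was the highest of all members with *miR-139-5p*, at a log2 fold change of 2.01 (4.03-fold), and stood at 1.28 (2.43-fold) with *miR-139-3p*. *SCAP*, the escort of SREBP to the Golgi, went the other way, with relative signals of 6.08 on the mock array, 4.35 on that of *miR-139-5p* and 2.74 on that of *miR-139-3p*. Its log2 fold change was -1.15 with *miR-139-3p*, the lowest among members with a value, and -0.48 with *miR-139-5p*.

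The genes of the factors themselves were under the threshold as processed, though *SREBF2* passed it under some settings. *SREBF1* had log2 fold changes of 0.10 with *miR-139-3p* (SD between 2 probes 0.19) and 0.06 with *miR-139-5p* (SD 0.30). *SREBF2*, with relative signals of 4.10 on the mock array, 5.43 on that of *miR-139-5p* and 5.30 on that of *miR-139-3p*, stood at 0.37 and 0.40 in the comparisons of *miR-139-3p* and *miR-139-5p* with mock. Over all settings it ranged from 0.16 to 0.54 in the first and from 0.33 to 0.52 in the second. *INSIG2*, the second INSIG gene, stood at 0.06 with *miR-139-3p* (SD between 2 probes 0.29) and 0.42 with *miR-139-5p* (SD 0.20). An array reads mRNA, so the cleavage of the SREBP precursors was not measured.

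Of the mevalonate steps, *HMGCS1* and *IDI1* were the highest with both miRNAs. *HMGCS1*, which makes HMG-CoA, had a relative signal of 4.27 on the mock array, 11.04 on that of *miR-139-5p* and 15.0 on that of *miR-139-3p*. This was 3.52-fold with *miR-139-3p* and 2.59-fold with *miR-139-5p*. *IDI1*, the isomerase of the isoprene units, had relative signals of 5.00, 10.7 and 13.6 in mock cells, *miR-139-5p* cells and *miR-139-3p* cells, which was 2.72-fold with *miR-139-3p* and 2.14-fold with *miR-139-5p*. For both genes the mock array was the lowest and the *miR-139-3p* array the highest.

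*MVD*, the decarboxylase that yields the isoprene unit, and *FDPS*, which joins isoprene units to farnesyl diphosphate, were over 0.5 with *miR-139-3p* only among the comparisons with mock. *MVD* had relative signals of 1.30, 1.64 and 2.85 in mock cells, *miR-139-5p* cells and *miR-139-3p* cells, with log2 fold changes of 1.13 with *miR-139-3p* and of 0.33 with *miR-139-5p*. *FDPS* had relative signals of 43.1, 53.9 and 101.5 on the same arrays, with log2 fold changes of 1.24 and 0.32. The differences between the miRNAs were 0.79 for *MVD* and 0.91 for *FDPS* on the log2 scale. The kinases differed from each other: *MVK*, mevalonate kinase, stood at 0.53 with *miR-139-3p* and at 0.32 with *miR-139-5p*, while *PMVK*, the kinase of the next step, stood at -0.51 and -0.54.

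*PMVK* was the 1 sterol enzyme below 0 with *miR-139-3p*, and with *TM7SF2* 1 of the 2 below 0 with *miR-139-5p*. Its relative signal was 11.7 on the mock array, 8.04 on that of *miR-139-5p* and 8.19 on that of *miR-139-3p*. *ACAT2*, the cytosolic thiolase that starts the branch, had no value as processed because the local background of its spot was marked both in mock cells and with *miR-139-5p*. With only the marks of the spot itself counted, its relative signals were 16.0, 22.3 and 34.6 in mock cells, *miR-139-5p* cells and *miR-139-3p* cells, and its log2 fold changes were 1.11 with *miR-139-3p*, as opposed to 0.47 with *miR-139-5p*.

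Of the steps from squalene to cholesterol, *MSMO1* and *SQLE* were high with both miRNAs. *MSMO1*, a methylsterol oxidase, had relative signals of 0.540 on the mock array, 1.59 on that of *miR-139-5p* and 2.25 on that of *miR-139-3p*, which was 2.94-fold and 4.16-fold. With another background correction (normexp) its log2 fold changes of 1.56 with *miR-139-5p* and of 2.06 with *miR-139-3p* were 0.95 and 1.31. *SQLE*, squalene epoxidase, had relative signals of 10.4, 24.4 and 34.0 on the same arrays, which was 2.35-fold with *miR-139-5p* and 3.28-fold with *miR-139-3p*. *CYP51A1*, the lanosterol demethylase, followed the same order at 11.3, 16.2 and 21.9, with log2 fold changes of 0.52 with *miR-139-5p* and of 0.96 with *miR-139-3p*.

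**Figure D2:**
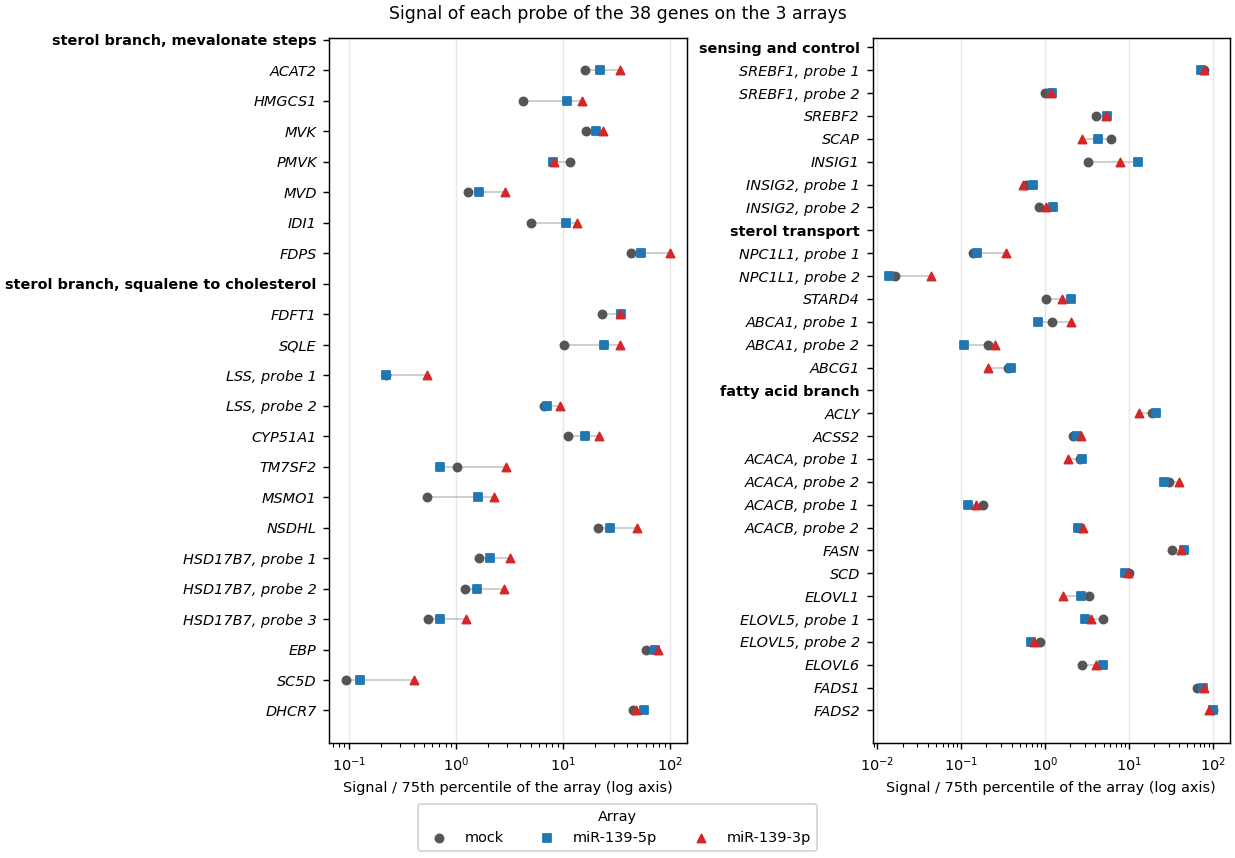
Relative signal (signal divided by the 75th percentile of the array, log axis) of each probe of the 38 genes in mock cells, *miR-139-5p* cells and *miR-139-3p* cells, with 1 row per probe and a line from its lowest to its highest array. Rows are read from left to right within a probe, as levels of different probes are not comparable: *HMGCS1*, *IDI1*, *SQLE*, *MSMO1* and *CYP51A1* run from mock through *miR-139-5p* to *miR-139-3p*.

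*NSDHL*, *HSD17B7* and *LSS* were over 0.5 with *miR-139-3p* and under it with *miR-139-5p*. *NSDHL*, a sterol dehydrogenase that takes part in removing methyl groups, had relative signals of 21.2 on the mock array, 27.8 on that of *miR-139-5p* and 49.0 on that of *miR-139-3p*, with log2 fold changes of 0.39 and 1.21. *HSD17B7*, the ketoreductase of the same reactions, was read by 2 probes on which all arrays had a value, and these stood at 1.19 and 1.21 with *miR-139-3p* and at 0.36 and 0.37 with *miR-139-5p*. The other probe, whose local background was marked on the *miR-139-3p* array, gave 0.95 there. *LSS*, lanosterol synthase, stood at 0.89 with *miR-139-3p* and at 0.05 with *miR-139-5p*, but its 2 probes gave 1.27 and 0.50 with *miR-139-3p* (SD 0.55), so that its size rests on the probe. With the normexp correction it was 0.49, under the threshold.

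*TM7SF2*, a sterol reductase that acts after lanosterol, stood apart from its neighbours. Its relative signal was 1.02 on the mock array, 0.702 on that of *miR-139-5p* and 2.91 on that of *miR-139-3p*, so that the miRNA arrays lay on either side of mock. The log2 fold changes were 1.51 with *miR-139-3p*, as opposed to -0.54 with *miR-139-5p*, and the 2 miRNAs differed by 2.05 (4.15-fold), more than for any other member with a value. With the normexp correction the value with *miR-139-5p* was -0.35. *LBR*, a nuclear membrane protein that carries out the same reduction, had the opposite order, at -0.24 with *miR-139-3p* and at 0.83 with *miR-139-5p*. *SC5D*, a sterol desaturase near the end of the pathway, was dim, with relative signals of 0.0926 on the mock array, 0.125 on that of *miR-139-5p* and 0.403 on that of *miR-139-3p*. With *miR-139-3p* it stood at 2.12, which became 0.61 with that correction, so its size rests on how the background was taken.

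*EBP*, a sterol isomerase, stood at 0.38 with *miR-139-3p* and at 0.29 with *miR-139-5p*. *DHCR7*, the reductase of the last step to cholesterol, had relative signals of 45.4 on the mock array, 57.2 on that of *miR-139-5p* and 48.4 on that of *miR-139-3p*, with log2 fold changes of 0.33 with *miR-139-5p* and of 0.09 with *miR-139-3p*. *FDFT1*, squalene synthase, stood at 0.59 with *miR-139-5p*. Its spot on the *miR-139-3p* array had a marked local background, and with that mark disregarded it stood at 0.56. Thus *DHCR7* and *EBP* were the 2 sterol enzymes between -0.5 and 0.5 with *miR-139-3p*.

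The 4 sterol transport genes did not share a direction. *STARD4*, a carrier of cholesterol between membranes and a known SREBP target, had relative signals of 1.02 on the mock array, 2.06 on that of *miR-139-5p* and 1.59 on that of *miR-139-3p*, with log2 fold changes of 1.01 and 0.63, of which the first was 0.58 with the normexp correction. Like *INSIG1*, it was higher with *miR-139-5p* than with *miR-139-3p*. *ABCA1*, the exporter of cholesterol to lipid-poor apolipoprotein, lay on either side of mock. Its log2 fold change was 0.50 with *miR-139-3p* (SD between 2 probes 0.35), just past the threshold, and -0.76 with *miR-139-5p* (SD 0.31), and the 2 miRNAs differed by 1.26 (SD 0.03). With the normexp correction the value with *miR-139-5p* was -0.28.

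*ABCG1*, the exporter to high-density lipoprotein, stood at -0.77 with *miR-139-3p* and at 0.15 with *miR-139-5p*, with relative signals of 0.358 on the mock array, 0.397 on that of *miR-139-5p* and 0.210 on that of *miR-139-3p*. *ABCA1* and *ABCG1*, which are known to be induced together by oxysterol receptors, were thus on opposite sides of 0 in both comparisons as processed. For *ABCG1* with *miR-139-5p*, however, the distance from 0 was about the spread between a gene's probes, and it was 0.03 with the normexp correction. *NPC1L1*, which takes up cholesterol in the intestine, was dim, with a relative signal of 0.140 on the mock array for its brighter probe. It stood at 1.27 with *miR-139-3p* and at 0.15 with *miR-139-5p*, of which the first was 0.42 with the normexp background correction. With that correction the value of *ABCG1* with *miR-139-3p* was -0.21.

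The fatty acid branch lay around 0 with both miRNAs. *ACLY*, which makes cytosolic acetyl-CoA from citrate, had relative signals of 19.0 on the mock array, 21.2 on that of *miR-139-5p* and 13.4 on that of *miR-139-3p*, with log2 fold changes of 0.16 and -0.51. *ACSS2*, which makes acetyl-CoA from acetate, stood at 0.28 with *miR-139-3p* and at 0.13 with *miR-139-5p*. *ACACA*, the acetyl-CoA carboxylase of fatty acid synthesis, had a mean of -0.05 with *miR-139-3p*, but its 2 probes gave -0.46 and 0.37, and no direction can be given for it. *ACACB*, the mitochondrial carboxylase, stood at -0.07 with *miR-139-3p* (SD between 2 probes 0.25) and -0.31 with *miR-139-5p* (SD 0.34).

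*FASN*, fatty acid synthase, had relative signals of 32.6 on the mock array, 45.4 on that of *miR-139-5p* and 41.6 on that of *miR-139-3p*, with log2 fold changes of 0.48 and 0.35. It lay under the threshold in both comparisons as processed and passed it under some settings, with ranges of 0.40 to 0.60 and 0.15 to 0.52. *SCD*, the desaturase of saturated fatty acids, had relative signals of 10.1, 9.05 and 9.75 in mock cells, *miR-139-5p* cells and *miR-139-3p* cells, and its log2 fold changes of -0.15 and -0.05 differed from 0 by no more than about the spread between a gene's probes. *FADS1* and *FADS2*, the desaturases of polyunsaturated fatty acids, lay between -0.19 and 0.28 in the comparisons with mock. No fatty acid enzyme was as far from mock as *HMGCS1* or *SQLE* in either comparison.

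The elongases differed from each other. *ELOVL6*, an elongase of saturated and monounsaturated fatty acids, was the 1 enzyme above 0.5 of the 11 of the fatty acid branch, with relative signals of 2.77 on the mock array, 4.89 on that of *miR-139-5p* and 4.03 on that of *miR-139-3p* and log2 fold changes of 0.82 and 0.54. *ELOVL5*, the elongase of polyunsaturated fatty acids, stood at -0.54 with *miR-139-5p* (SD between 2 probes 0.29) and -0.35 with *miR-139-3p* (SD 0.17). *ELOVL1*, the elongase of very long chains, stood at -0.30 with *miR-139-5p*. On the *miR-139-3p* array the local background of its spot was marked, and with that mark disregarded its log2 fold change was -1.03.

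On the *miR-139-3p* array, dim genes tended to be higher and bright genes lower than on the mock array, so the members were set beside genes of like signal. In 4 equal groups, by mock signal, of protein-coding genes measured on both arrays, the median log2 fold change with *miR-139-3p* ran from 0.36 in the lowest group through -0.15 and -0.28 to -0.37 in the highest. In the highest group, 7.64% of 3168 genes were above 0.5. Of the 8 sterol enzymes in that group, 5 were (*MVK*, *FDPS*, *SQLE*, *CYP51A1* and *NSDHL*), and of the other members there none was. All 3 sterol enzymes in group 3 (*HMGCS1*, *IDI1* and *LSS*) were above 0.5, where 11.7% of the genes were, as were the 3 in group 2 (*MVD*, *TM7SF2* and *HSD17B7*), where 18.9% were. A gene was placed by its brightest probe, and that probe of *LSS* alone gave 0.50, at the threshold. *MSMO1* and *SC5D* lay in the lowest group, where 44.0% of the genes were above 0.5. The fatty acid enzymes with a value, apart from *ACLY* and *ELOVL5*, also lay above the median of their group with *miR-139-3p*. Examples in the highest group were *FASN* at 0.35 and *SCD* at -0.05. With *miR-139-5p* the medians of the groups lay between -0.02 and 0.05, and 3 of the 9 sterol enzymes in the highest group were above 0.5 (*FDFT1*, *SQLE* and *CYP51A1*), where 4.45% of the genes were. So were 2 of 3 in group 3 (8.49% of the genes), 0 of 3 in group 2 (11.3%) and 1 of 2 in the lowest group (16.8%).

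**Figure D3:**
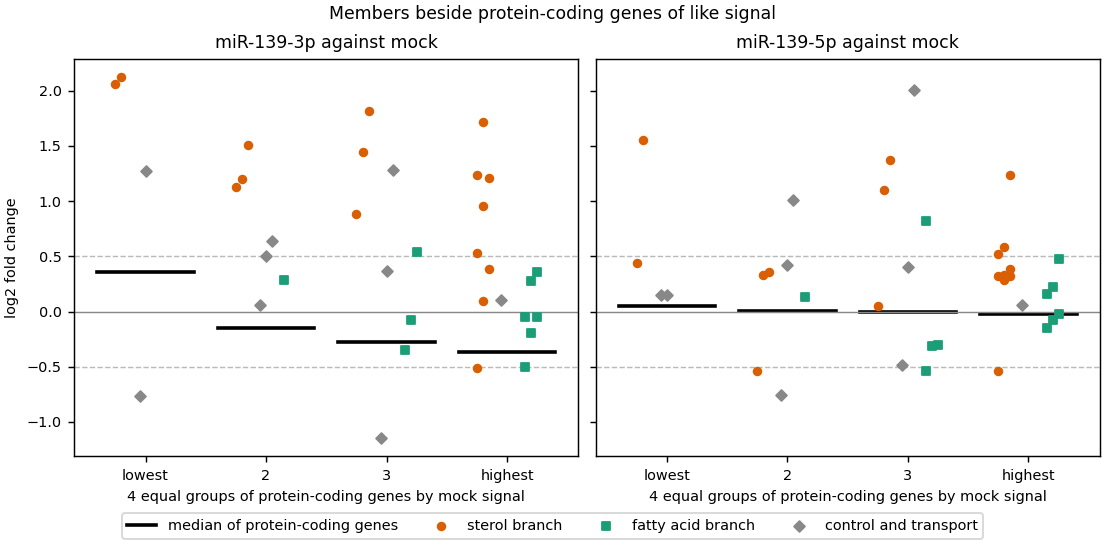
log2 fold change of the members (points) in 4 equal groups of protein-coding genes by relative signal on the mock array, with the median of the protein-coding genes of each group as a black bar and dashed lines at -0.5 and 0.5. With *miR-139-3p* (left) the bars go down from 0.36 to -0.37 while sterol enzymes lie above the bar in all groups, with *PMVK* below it. Fatty acid enzymes on the left also lie above their bar, apart from *ACLY* and *ELOVL5*. With *miR-139-5p* (right) the bars lie near 0.

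Over all 53 other genes of the same pathways, the medians were close to those of all protein-coding genes. Medians of some of the smaller lists were not. With *miR-139-3p*, 9 of 50 with a value, 1 of them a bound, were above 0.5 and 15 below -0.5, with a median of -0.13, where 23.0% and 30.5% of protein-coding genes were. With *miR-139-5p*, 6 of 48 were above 0.5 and 8 below -0.5, with a median of -0.0023, where 10.6% and 12.2% of protein-coding genes were. The counts of the smaller lists that follow are to be read beside the same shares. Of 9 other sterol genes, 8 had a value. With *miR-139-3p*, 3 of these were above 0.5 and 3 below -0.5, with a median of 0.09. With *miR-139-5p*, 4 were above 0.5 and 1 below -0.5. Their median with *miR-139-5p* was 0.41, where that of the sterol branch was 0.36. Among those above 0.5 with *miR-139-5p* were *LBR* at 0.83 and *ERG28*, a scaffold of sterol enzymes, at 0.66.

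The 5 oxysterol receptors and partners had a median of -0.53 with *miR-139-3p* and of -0.29 with *miR-139-5p*. With *miR-139-3p*, 3 were below -0.5 and 1 was above 0.5. The lowest there was *NR1H3*, the liver X receptor alpha, at -1.46. *MYLIP*, a ubiquitin ligase induced by that receptor, was above 0.5 with *miR-139-5p* at 0.97. Of 16 other fatty acid genes, 15 had a value with *miR-139-3p*, of which 3 were above 0.5 (*ELOVL7* the highest at 1.07) and 5 below -0.5 (*HACD2*, a dehydratase of elongation, the lowest at -1.16). Of 10 genes of fatty acid activation and esterification, 2 were above 0.5 and 2 below -0.5 with *miR-139-3p*. *ACSL5*, an acyl-CoA synthetase, stood at 0.90 with *miR-139-3p* and at -1.15 with *miR-139-5p*, and *AGPAT2*, an acyltransferase of lipid synthesis, at -1.52 and -1.15. *DGAT2*, which makes triglycerides, stood at 0.97 with *miR-139-3p*. Of the genes that handle sterols inside the cell, 8 had a value with *miR-139-3p*, 1 of them a bound, and 7 had one with *miR-139-5p*. None was above 0.5 in these comparisons, 2 were below -0.5 in each, and *GRAMD1A*, a sterol carrier of the endoplasmic reticulum, was the lowest at -1.60 with *miR-139-3p*. The 4 measured genes of SREBP processing and turnover lay between -0.41 and 0.29 in the comparisons with mock.

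Promoters are shown because the sterol genes lay mostly on one side of mock and share known regulators. RefSeq promoter windows of build GRCh38.p14, from 250 bases before to 50 bases after the start, were held for 33 of the 38 genes. They were searched on both strands for the SREBP motif TCACNCCAC, the NF-Y box CCAAT and the E-box CACGTG, and no match overlaps another in the stretches printed. The NF-Y box was in the windows of 25 of 33 members, 13 of 15 sterol enzymes and 8 of 10 fatty acid enzymes, where 39.7% of 27305 genes hold it. The SREBP motif was in 1 of 33 members, *SREBF2*, where 1.39% of genes hold it, and the E-box in 6 of 33, where 8.77% of genes hold it. A match is a description of letters and not of binding. The lack of a match means only that these exact letters are absent from the window, and other forms of the motifs were not searched.

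The 200 bases before the start are printed for the following genes, with the NF-Y box (on the minus strand read as ATTGG) and the SREBP motif in capitals. *HMGCS1* and *MSMO1* stand for the sterol branch, *INSIG1* and *SREBF2* for control and *SCD* for the fatty acid branch. *HMGCS1* (2 windows, of which 1 is shown) lies at chr5:43313413-43313612, minus strand, *MSMO1* at chr4:165327469-165327668, plus strand, *INSIG1* at chr7:155297678-155297877, plus strand, *SREBF2* at chr22:41832905-41833104, plus strand and *SCD* at chr10:100347033-100347232, plus strand.
HMGCS1: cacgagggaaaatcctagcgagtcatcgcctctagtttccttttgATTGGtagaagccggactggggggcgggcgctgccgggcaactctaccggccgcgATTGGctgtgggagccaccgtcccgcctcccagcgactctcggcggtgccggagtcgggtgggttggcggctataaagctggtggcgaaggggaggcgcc
MSMO1: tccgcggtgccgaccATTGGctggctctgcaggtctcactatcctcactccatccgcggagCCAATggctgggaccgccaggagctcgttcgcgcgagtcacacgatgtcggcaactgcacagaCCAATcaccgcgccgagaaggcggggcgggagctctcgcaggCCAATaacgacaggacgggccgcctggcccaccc
INSIG1: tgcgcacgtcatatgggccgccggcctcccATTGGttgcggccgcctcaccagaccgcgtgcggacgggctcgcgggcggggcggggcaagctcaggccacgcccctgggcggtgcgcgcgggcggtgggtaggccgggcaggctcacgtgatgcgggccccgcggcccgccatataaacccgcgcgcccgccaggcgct
SREBF2: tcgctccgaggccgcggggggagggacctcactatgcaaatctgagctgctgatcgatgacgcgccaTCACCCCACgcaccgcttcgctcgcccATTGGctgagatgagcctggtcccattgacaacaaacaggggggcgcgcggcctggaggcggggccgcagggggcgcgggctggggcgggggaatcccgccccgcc
SCD: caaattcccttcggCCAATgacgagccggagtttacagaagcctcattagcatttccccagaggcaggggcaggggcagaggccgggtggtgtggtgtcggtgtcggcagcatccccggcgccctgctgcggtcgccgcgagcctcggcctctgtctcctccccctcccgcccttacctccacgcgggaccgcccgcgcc
The stretch of *MSMO1* held 4 NF-Y boxes, that of *HMGCS1* 2 and those of *INSIG1*, *SREBF2* and *SCD* 1 each. *SCD*, whose signal differed little between arrays, thus held the box too, as did 8 of 10 fatty acid enzymes.

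The sterol median lay above the fatty acid median under each of the 11 other ways of processing that were run, of which those that only rescale an array move both medians alike and cannot alter their distance. With quantile normalization, the normexp correction, the deposited log2 values, the brightest probe of each gene or the other treatments of marked spots, which can alter it, the distance was 0.98 to 1.22 for *miR-139-3p* against mock, compared with 1.25 as processed, and 0.30 to 0.40 for *miR-139-5p* against mock, compared with 0.38. With *miR-139-3p* against mock, the median of the sterol branch lay between 0.96 and 1.37 and that of the fatty acid branch between -0.25 and 0.19. With *miR-139-5p* against mock, these were 0.29 to 0.48 and -0.09 to 0.10. Between the 2 miRNAs, the sterol median was 0.18 with the spike-in scaling and 0.70 with quantile normalization, its lowest and highest values, so that its size depended on the scaling. Many single members lay on either side of the threshold depending on the setting, 13 of them with *miR-139-3p* and 12 in the other comparison with mock. With *miR-139-3p* against mock, *MVK* ranged from 0.32 to 0.79, *LSS* from 0.49 to 1.06, *EBP* from 0.18 to 0.55, *STARD4* from 0.35 to 0.80, *NPC1L1* from 0.42 to 1.44, *ABCA1* from 0.29 to 0.75 and *ELOVL6* from 0.33 to 0.71. On the lower side, *PMVK* ranged from -0.72 to -0.31, *ABCG1* from -1.09 to -0.21, *ACLY* from -0.71 to -0.27 and *ELOVL5* from -0.56 to -0.18. With *miR-139-5p* against mock, *CYP51A1* ranged from 0.45 to 0.64, *FDFT1* from 0.46 to 0.71, *NSDHL* from 0.31 to 0.51, *SC5D* from 0.11 to 0.55 and *INSIG2* from 0.24 to 0.56. On the lower side, *PMVK* ranged from -0.61 to -0.42, *TM7SF2* from -0.61 to -0.35, *SCAP* from -0.58 to -0.36, *ABCA1* from -0.83 to -0.28 and *ELOVL5* from -0.74 to -0.42. The others were *SREBF2* and *FASN*, in both comparisons.

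**Figure D4:**
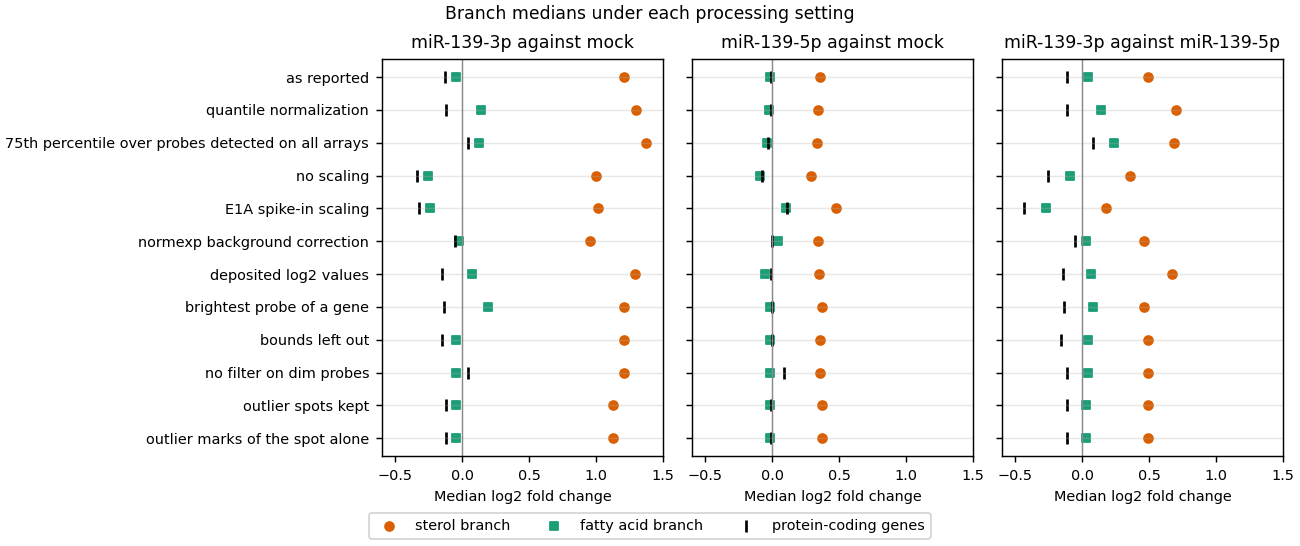
Median log2 fold change of the sterol branch (circles), of the fatty acid branch (squares) and of protein-coding genes (bars) under each way of processing, for each miRNA relative to mock and, in the last panel, for *miR-139-3p* relative to *miR-139-5p*. The circles lie at 0.96 to 1.37 in the first panel, to the right of the squares, and in rows that only rescale an array the distance between circle and square is the same by construction.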

How the data were processed

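RNA from A549 cells was hybridised to 3 arrays of 1 colour, 1 for each of mock cells and the 2 miRNAs. The authors deposited spot intensity values from Feature Extraction 12.1.1.1, with the background subtracted and no normalization between arrays, and a table of log2 values per probe, which was used as an alternative.

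Each processed signal was divided by the array's 75th percentile over spots other than controls, which was 93.6 for mock, 88.9 for *miR-139-5p* and, on slide 2, 81.0 for *miR-139-3p*, and log2 was taken. Spots marked as outliers in the spot or its local background were left out. Spots of a probe were averaged where it had more than 1, and each member probe had 1. A probe counted as measured where at least 50% of its spots were well above background. A gene's value was the mean over probes measured on both arrays, or a bound where its probes were measured on 1 of them. Bounds were 879 of 13551 protein-coding genes for *miR-139-3p* against mock, 522 of 13195 for *miR-139-5p* and 1043 of 13449 between the miRNAs. Names came from RefSeq accessions without versions (assembly GRCh38.p14), which matched 31104 of 58201 probes. Calls were made past 0.5 or -0.5 on the log2 scale. In all, 13 other settings were tried, and 1 more, counting only the marks of the spot itself, was chosen after seeing the data. The members and gene lists were chosen with earlier results of these data known. All 38 members are named; other genes of the pathways are named only if measured on both arrays and among the 5 lowest below -0.5 or the 5 highest above 0.5 in a comparison. Some genes that this rule names are not reported here. Steps were tested on simulated data. Binding sites in transcripts were not analysed here. The software was Python 3.11.15 (numpy 2.4.6, pandas 2.3.3, matplotlib 3.10.9) and, for normexp on the median signals with an offset of 50, limma 3.58.1 in R 4.3.3.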

Additional observations from a re-analysis of the deposited data

Results flagged for a closer look

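*TM7SF2* and *ABCA1* lay on opposite sides of mock by over 0.5 on the log2 scale with the 2 miRNAs. The difference of *miR-139-3p* from *miR-139-5p* was 2.05 for *TM7SF2* and 1.26 for *ABCA1* on the log2 scale. With 1 array per condition and the *miR-139-3p* array on another slide, the difference was not tested. *ABCA1* with *miR-139-3p* was only just past 0.5 and ranged from 0.29 to 0.75 over the settings, and with the normexp background correction *ABCA1* and *TM7SF2* with *miR-139-5p* were -0.28 and -0.35, so both fell short of 0.5 in size there.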

How the results depend on the processing

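Of the counts and medians under other settings, 109 values were close to those reported (within 1.5 times, or within the spread between probes) and 9 were not, and no called value of a member changed sign. Scaled to E1A spike-in probes, the median between the 2 miRNAs was 0.18 for the sterol branch and -0.27 for the fatty acid branch, 14 members were above 0.5 with *miR-139-5p*, the same number as with *miR-139-3p*, and 1 was below -0.5 with *miR-139-5p*. Members below -0.5 with *miR-139-3p* numbered 2 with the percentile taken over detected probes, 2 with quantile normalization and 1 at a threshold of 1. Those with *miR-139-5p* numbered 2 with the normexp background correction and 0 at a threshold of 1. The cause was not tested. The median of protein-coding genes with *miR-139-3p* was -0.34 without scaling, -0.32 with the spike-in scaling and 0.04 with the percentile over detected probes, against -0.13 as reported, and with *miR-139-5p* it was 0.11 with the spike-in scaling. Against it, the sterol median with *miR-139-3p* was higher by 1.01 to 1.44. Of single members, 30 values moved by more than the spread between probes of a gene and 762 did not. No paired analysis was possible because each condition had 1 array and the results come from no test. What the arrays limit is the spread between cultures, which they do not hold, and low signals such as those of *SC5D* and *NPC1L1*.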
